A study of Mus musculus with 46 samples.

Results

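The genes described here are 42 ribosome biogenesis factors, followed in mouse liver after a single dose of carbon tetrachloride (CCl4), a solvent that hepatocytes convert to a toxic radical. They are nucleolar proteins, proteins of small nucleolar ribonucleoprotein particles (snoRNPs), subunits and a partner of RNA polymerase I (Pol I), and factors that process the ribosomal RNA precursor. They were chosen by name, and each was read from the probe set that names that gene alone, or, where several did, from the one with the highest mean over all arrays. That gave 41 of the 42 genes among 18193 genes on the array, since the only probe set of Mrto4 also names other genes. All 41 passed the filter on low values, which left 13239 genes to test. Of the 41, 39 lay above the filter level on all 5 control arrays, while Polr1b lay above it on 0 and Rrp12 on 2 of them, so these 2 genes passed the filter largely through treated arrays.

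Livers of male C57BL/6N mice aged 8 to 10 weeks were taken at 2 h, 8 h, 1 d, 2 d, 4 d, 6 d, 8 d and 16 d after an intraperitoneal injection of CCl4 at 1.6 g/kg in olive oil, and from untreated mice as controls. There were 5 arrays in each group and 6 at 16 d, 46 in all. Because the controls are labelled untreated, each difference from control also includes the oil and the injection, and the hour at which livers were taken was not stated in these sources. No label ties each array to an animal of its own, so the p-values cover only the spread among arrays, which may be technical, and precision is limited by how many arrays there are. Values are log2 expression values, a difference of 1 being a 2-fold change, and a gene was called higher or lower where its adjusted p was below 0.05 (limma, Benjamini-Hochberg over all genes tested). Errors after ± are standard errors of log2 differences unless an SD is named.

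Ribosomes are assembled in the nucleolus. Pol I transcribes a long precursor RNA, snoRNPs guide its methylation and pseudouridylation, and a succession of factors folds, cuts and exports it as the small and the large ribosomal subunit. Liver cells that leave quiescence build ribosomes before they replicate their DNA, and the transcription factor Myc is known to bind many of these genes at the E-box motif.

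The promoter windows of the genes whose levels moved furthest at 8 h, and of those that hold an E-box, show what sequence lies at their starts. RefSeq windows (GRCm38.p6) of 250 bases before to 50 bases after the gene start matched 36 of the 42 genes. The 300 bases of Nop58 and Tsr1 are given because these genes had the largest differences at 8 h, and capitals mark the E-box CACGTG.
Nop58 (chr1:59684756-59685055, plus strand): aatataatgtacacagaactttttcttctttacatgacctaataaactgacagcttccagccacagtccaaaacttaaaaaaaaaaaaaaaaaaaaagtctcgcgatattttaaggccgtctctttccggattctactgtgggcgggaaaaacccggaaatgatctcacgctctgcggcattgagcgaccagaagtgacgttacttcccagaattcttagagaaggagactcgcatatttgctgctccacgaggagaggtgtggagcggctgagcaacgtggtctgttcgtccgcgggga
Tsr1 (chr11:74897830-74898129, plus strand): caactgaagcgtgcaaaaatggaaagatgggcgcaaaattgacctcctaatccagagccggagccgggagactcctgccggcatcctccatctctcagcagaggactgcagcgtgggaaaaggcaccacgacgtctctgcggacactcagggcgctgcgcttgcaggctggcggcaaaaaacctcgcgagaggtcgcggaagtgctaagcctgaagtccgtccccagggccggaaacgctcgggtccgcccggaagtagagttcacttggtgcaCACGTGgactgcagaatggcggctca
The Nop58 window has no CACGTG, and the Tsr1 window has it just after the gene start. The E-boxes of other members are given with their flanks, from upstream to downstream of the gene start, to show the letters around the motif.
Imp4 (chr1:34439696-34439725, plus strand): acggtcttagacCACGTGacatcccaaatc
Nop2 (chr6:125131811-125131840, plus strand): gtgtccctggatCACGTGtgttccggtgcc
Pes1 (chr11:3963965-3963994, plus strand): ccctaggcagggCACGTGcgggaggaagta
Wdr43 (chr17:71616220-71616249, plus strand): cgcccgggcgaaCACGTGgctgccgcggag
Ltv1 (chr10:13193092-13193121, minus strand): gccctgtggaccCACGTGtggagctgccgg
Pno1 (chr11:17211540-17211564, minus strand): tgtacaaccacgCACGTGttcctct
Utp20 (chr10:88826765-88826789, minus strand): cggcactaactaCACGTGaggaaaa
Mybbp1a (chr11:72441355-72441376, plus strand): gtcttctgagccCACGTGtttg
The window of Rrn3 holds the motif at 2 places, of which the one nearer to the gene start is printed.
Rrn3 (chr16:13780639-13780668, plus strand): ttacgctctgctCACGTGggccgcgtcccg
CACGTG reads the same on both strands. It was found in 10 of 36 member windows (27.8%), against 11.2% of the windows of 10637 genes tested and 8.09% of 27025 genes with a window of this length. The ETS-type letters CCGGAAG, searched on both strands and holding none of the other motifs, were in 12 windows (33.3%), against 17.9% of genes tested. CCAAT, on both strands, was in 12 windows (33.3%), against 42% of genes tested, and TATAAA, on both strands, was in 3 (8.33%), against 10.1%. The median GC content of the windows was 58.8% in members and 60% in genes tested. A match is a description of these letters and not a binding site. At 8 h the 10 members with an E-box had a median log2 difference from control of 0.97 with 9 called higher, and the 25 measured members with a window and no E-box had a median of 0.91 with 25 called higher.

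Several of these genes carry snoRNA genes within their span, which are spliced out of their introns as guide RNAs for ribosomal RNA. In the RefSeq annotation 8 of 42 members (19.0%) hold at least 1 snoRNA gene, against 254 of 12574 protein-coding genes tested (2.02%). These are Nop56 with 5, Nop58 with 4, Gnl3 and Wdr43 with 3 each, Ncl and Ppan with 2 each, and Dkc1 and Tsr1 with 1 each. All 8 of these host genes were called higher at 8 h and at 1 d, as were most of the measured members without a snoRNA gene. Among all genes tested, 17.7% were called higher at 8 h and 25% at 1 d. The members are not long genes, their median span being 13442 bases against 22552 bases in genes tested.

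At 8 h after CCl4, 39 of 41 members were higher than in controls and 0 were lower. Among all genes tested, 17.7% were called higher at that time. The median log2 difference over the members was 0.95, and over all genes tested it was -0.04. On 35 members all 5 arrays at 8 h lay above all 5 control arrays, a separation seen in 13.9% of genes tested. The 6 with overlapping groups were Polr1a, Polr1b, Rrn3, Dkc1, Bop1 and Noc2l. The differences ranged from 0.11 in Bop1 to 2.76 in Nop58. The counts called higher at 8 h and at 1 d include Polr1b and Rrp12, which passed the filter largely through treated arrays. In whole liver, more RNA per cell and more cells of a type that expresses a gene cannot be told apart.

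**Figure D1:**
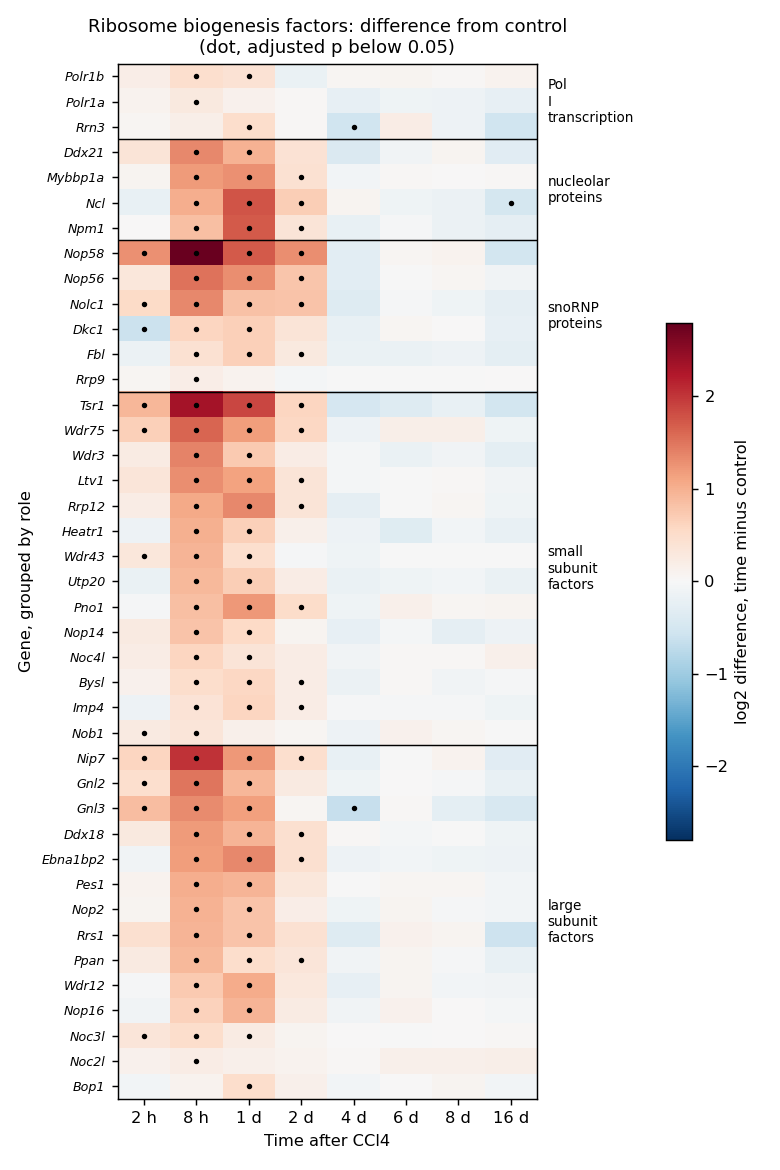
Log2 difference from control of the 41 measured ribosome biogenesis factors (rows, grouped by role and ordered by the value at 8 h) at each time after CCl4 (columns), with a dot where the adjusted p is below 0.05. The red block spans 8 h and 1 d, where 39 and 37 genes were called higher, and the columns from 4 d on are pale, with dots on 2 genes at 4 d and on 1 at 16 d.

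The 3 Pol I genes had a median log2 difference of 0.27 at 8 h, and 2 of them were called. Polr1b, the second largest Pol I subunit, read 5.57, 5.56, 5.79, 5.39 and 5.92 on the arrays at 8 h, against 5.09, 5.17, 5.38, 4.87 and 5.41 in controls, a log2 difference of 0.46 ± 0.12 (adjusted p = 0.00102). The lowest array at 8 h lay below the highest control array. Polr1b was above the filter level on 7 of the 46 arrays and on 0 control arrays. It entered the test only through treated arrays, so its call is not independent of the groups in which it is high. Polr1a, the largest subunit, read 6.69, 6.97, 6.91, 6.94 and 7.14 at 8 h, against 6.67, 6.40, 6.67, 6.94 and 6.62 in controls, a difference of 0.27 ± 0.10 (adjusted p = 0.0247) with overlapping groups. The call of Polr1a was lost without control array 2 (0.21) or array 5 at 8 h (0.22), and with the Gapdh covariate described with the cell markers (0.23). Rrn3, the factor that brings Pol I to its promoter, read 6.12, 6.49, 6.67, 6.36 and 6.64 at 8 h, against 5.85, 6.02, 6.55, 6.49 and 6.48 in controls, and was not called (0.17 ± 0.16, adjusted p = 0.433). Its 5 control arrays fell into 3 higher and 2 lower values, and the arrays at 8 h lay within or just above that range. At 1 d Rrn3 was called (0.48 ± 0.16, adjusted p = 0.0139), though array 1 at 1 d stood far above the other 4 and without it the difference was 0.28 and not called, as it was without control array 1 (0.37).

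The nucleolar proteins rose together, and all 4 were called at 8 h. Ddx21, an RNA helicase that acts in Pol I transcription and rRNA processing, read 7.67, 7.79, 8.33, 7.78 and 8.08 at 8 h, against 6.21, 6.53, 6.64, 6.76 and 6.74 in controls, a difference of 1.36 ± 0.20 (adjusted p = 3.16e-07). Every array at 8 h lay above every control array. Mybbp1a, a nucleolar Myb-binding protein, read 8.78, 8.99, 9.24, 8.92 and 9.45 at 8 h, against 7.87, 7.78, 7.97, 8.00 and 7.81 in controls, a difference of 1.19 ± 0.12 (adjusted p = 2.07e-10), again with no overlap. Ncl (nucleolin) and Npm1 (nucleophosmin), abundant proteins of the nucleolus, were higher by 1.02 and 0.84 at 8 h.

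Of the snoRNP proteins all 6 were called at 8 h. Nop58, a core protein of the box C/D snoRNPs that methylate rRNA, read 9.77, 9.81, 10.11, 9.90 and 10.06 at 8 h, against 6.96, 6.91, 7.14, 7.18 and 7.67 in controls. The lowest array at 8 h lay far above the highest control array, and the difference of 2.76 ± 0.25 is 6.77-fold (adjusted p = 5.96e-12). Its partner Nop56 read 8.78, 8.94, 9.65, 8.68 and 9.59 at 8 h, against 7.41, 7.34, 7.78, 7.68 and 7.82 in controls, a difference of 1.521 ± 0.21 (adjusted p = 5.89e-08), without overlap. Nolc1, a chaperone of snoRNPs in the nucleolus, read 7.60, 7.73, 8.27, 7.85 and 8.29 at 8 h, against 6.28, 6.46, 6.74, 6.76 and 6.75 in controls, a difference of 1.35 ± 0.18 (adjusted p = 3.04e-08), and these groups did not overlap either. Dkc1, the pseudouridine synthase of H/ACA snoRNPs, was higher by 0.60, the methyltransferase Fbl (fibrillarin) by 0.44, and Rrp9, a protein of the U3 snoRNP, by 0.19. Fbl was read from a probe set that can cross-hybridise with related transcripts, and a second Fbl probe set gave 0.42.

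All 14 small subunit factors were called at 8 h. Tsr1, a late factor of the precursor of the small subunit, read 9.21, 9.22, 9.81, 9.24 and 9.74 at 8 h, against 6.90, 6.93, 7.36, 7.04 and 7.39 in controls, a difference of 2.32 ± 0.25 or 5-fold (adjusted p = 2.85e-10). No array overlapped. Its probe set can cross-hybridise, and the other Tsr1 probe set, which is of the same kind, gave 2.05. Wdr75, a subunit of the early complex that links rRNA transcription to processing, read 7.65, 7.93, 8.38, 7.82 and 8.10 at 8 h, against 6.09, 6.12, 6.57, 6.51 and 6.44 in controls, a difference of 1.63 ± 0.18 (adjusted p = 4.02e-10). Wdr3, a WD-repeat protein of the small subunit processome, read 8.54, 8.71, 8.82, 8.63 and 8.73 at 8 h, against 7.31, 7.19, 7.28, 7.31 and 7.42 in controls, a difference of 1.39 ± 0.13 (adjusted p = 3.18e-11). Neither gene had an array at 8 h within the range of its controls. The other 11 ranged from 0.33 in Nob1, the endonuclease that makes the 3′ end of 18S rRNA, to 1.30 in Ltv1, a factor released late from the small subunit precursor. Heatr1 (0.99), Wdr43 (0.95) and Utp20 (0.91), which belong to the processome, lay between them.

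Of the 14 measured large subunit factors 13 were called at 8 h. Nip7, a factor needed for late steps of large subunit assembly in yeast, read 8.71, 8.78, 9.31, 8.76 and 9.17 at 8 h, against 6.65, 6.83, 7.04, 6.92 and 7.14 in controls, a difference of 2.03 ± 0.16 or 4.09-fold (adjusted p = 2.15e-13). Gnl2, a nucleolar GTPase of the large subunit precursor, read 8.39, 8.34, 8.73, 8.33 and 8.62 at 8 h, against 6.96, 6.92, 6.99, 7.11 and 6.92 in controls, a difference of 1.504 ± 0.16 (adjusted p = 1.49e-10). Arrays at 8 h and control arrays did not overlap for either gene. Gnl3 (nucleostemin), a GTPase of proliferating cells, read 9.09, 9.41, 9.74, 9.64 and 9.42 at 8 h, against 7.70, 7.98, 8.16, 8.32 and 8.53 in controls, a difference of 1.32 ± 0.19 (adjusted p = 2.28e-07), with all 5 arrays above the controls. Pes1, Bop1 and Wdr12 form the PeBoW complex, which processes the large subunit RNA. Pes1 was higher by 1.03 ± 0.13 and Wdr12 by 0.74 ± 0.14, while Bop1 read 6.95, 7.08, 7.04, 7.11 and 7.09 at 8 h, against 6.85, 6.94, 6.99, 7.07 and 6.87 in controls, and was not called (0.11 ± 0.08, adjusted p = 0.287). The groups of Bop1 overlapped at 8 h, and at 1 d it was called at 0.49 ± 0.08 (adjusted p = 9.56e-07). Rrs1, a factor of the 5S ribonucleoprotein, was read from a probe set that can cross-hybridise and was higher by 0.96, and its other probe set gave 0.82.

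**Figure D2:**
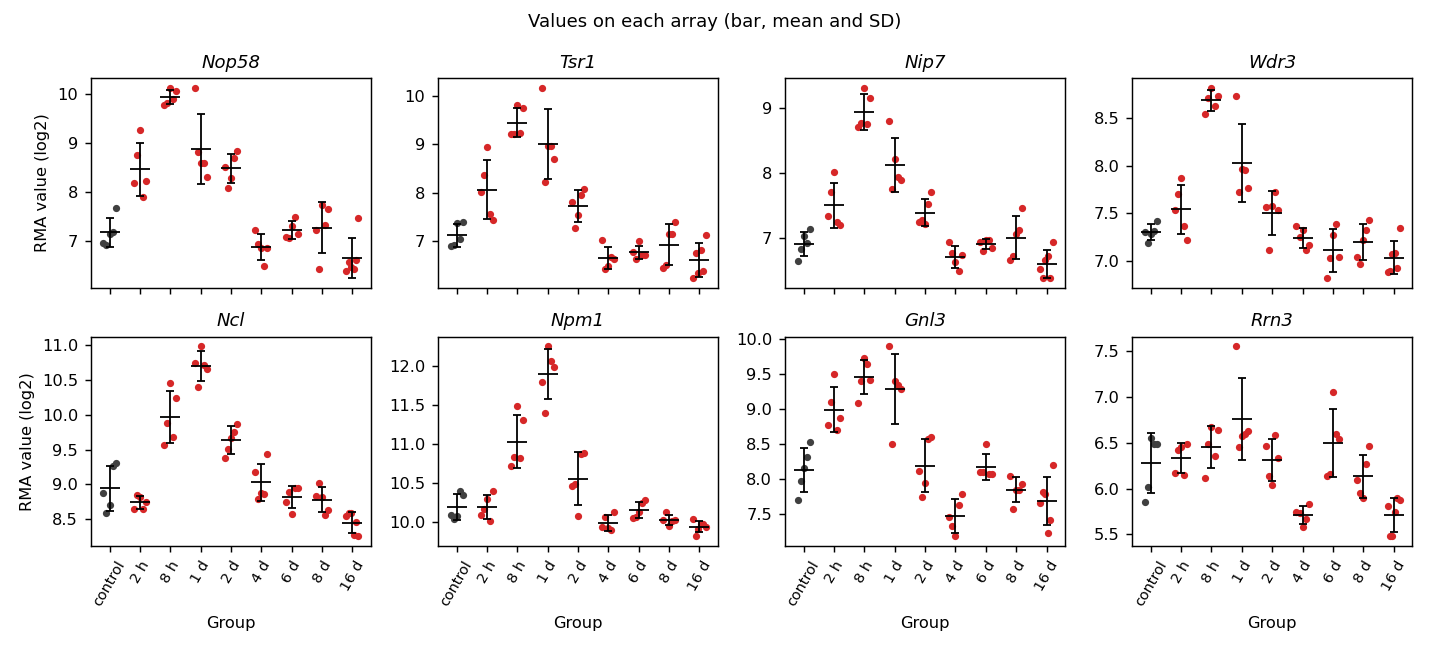
Log2 values on each array (points) for 8 genes, with the mean and SD of each group, from control through 16 d. Nop58, Tsr1, Nip7 and Wdr3 stood highest at 8 h, Ncl and Npm1 at 1 d, and array 1 at 1 d lies above the other arrays of its group in several panels.

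Other probe sets of the members were compared where they exist. There were 43 of them for 27 members, and 26 were called higher and 1 lower at 8 h in a fit over all probe sets. Of the 23 with a mean above the filter level, 19 were called higher and 0 lower. The share of all probe sets called in that fit was not taken, so these counts have no background beside them. Among probe sets above the level the range at 8 h was widest in Gnl2, with 0.47 to 1.66, followed by Ebna1bp2, with 0.06 to 1.17, and Noc4l, with 0.36 to 1.15. Imp4 was the member whose probe sets above the level differed in sign at 8 h, with -0.04 to 0.38.

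From 2 h to 8 h, 33 members rose and 0 fell, against 20.4% of genes tested that rose. The largest steps were Nop58 (1.47 ± 0.25), Nip7 (1.44 ± 0.16) and Tsr1 (1.38 ± 0.25), with adjusted p of 7.66e-06, 2.22e-09 and 1.78e-05. At 2 h after CCl4, 10 of 41 were called higher and 1 lower, against 6.41% of genes tested called higher and 19.9% called lower. Leaving out array 3 at 2 h left 7 called in all, and the calls of Nolc1, Gnl2, Nob1 and Wdr43 were lost. Nop58 read 8.17, 8.74, 9.26, 7.90 and 8.22 at 2 h, against 6.96, 6.91, 7.14, 7.18 and 7.67 in controls, a difference of 1.29 ± 0.25 (adjusted p = 0.000155). Tsr1 read 8.01, 8.36, 8.94, 7.55 and 7.44 at 2 h, against 6.90, 6.93, 7.36, 7.04 and 7.39 in controls, a difference of 0.94 ± 0.25 (adjusted p = 0.00394). Gnl3 read 8.78, 9.11, 9.50, 8.71 and 8.87 at 2 h, against 7.70, 7.98, 8.16, 8.32 and 8.53 in controls, a difference of 0.86 ± 0.19 (adjusted p = 0.000825). In 7 members, these 3 among them, all 5 arrays at 2 h exceeded every control array, as in 4.34% of genes tested, and array 3 was the highest at 2 h in each. The other genes called higher at 2 h were Nolc1, Wdr43, Wdr75, Nob1, Nip7, Gnl2 and Noc3l, with differences of 0.25 in Nob1 to 0.67 in Wdr75. The exception was Dkc1, which read 7.84, 7.68, 7.72, 7.64 and 7.59 at 2 h, against 8.17, 8.11, 8.41, 8.38 and 8.44 in controls, without overlap, a difference of -0.61 ± 0.16 (adjusted p = 0.00363). Its other 2 probe sets gave -0.27 and -0.53 at 2 h and were not called. With the Gapdh covariate 4 members were called at 2 h and 9 at 2 d.

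At 1 d, 37 of 41 members were higher and 0 lower, against 25% of genes tested called higher. The median difference over the members was 0.81. Tsr1 read 10.16, 8.21, 8.97, 8.97 and 8.69 at 1 d, against 6.90, 6.93, 7.36, 7.04 and 7.39 in controls, a difference of 1.88 ± 0.25 (adjusted p = 2.79e-08). Ncl read 10.74, 10.39, 10.98, 10.71 and 10.65 at 1 d, against 8.88, 8.59, 8.71, 9.26 and 9.30 in controls, a difference of 1.75 ± 0.14 (adjusted p = 2.26e-13). Npm1 read 11.80, 11.41, 12.26, 12.07 and 11.99 at 1 d, against 10.09, 10.04, 10.08, 10.40 and 10.35 in controls, a difference of 1.71 ± 0.13 (adjusted p = 5.04e-14). None of these 3 genes had overlapping groups. Array 1 at 1 d stood apart, with the lowest mean correlation with its own group over all genes (r = 0.95), followed by array 2 (0.962). It also had the highest mean over the 41 members, 1.38 above control, where the other 4 arrays at 1 d ranged from 0.56 to 0.84. Without array 1, 35 members were called at 1 d, and the difference of Tsr1 was 1.59.

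Between 8 h and 1 d, 6 members were higher at 1 d and 11 were lower, against 20.8% and 10.9% of genes tested, 31.7% in all. Among the 8 times after CCl4, with control left out, the highest group mean was at 8 h for 27 of 41 members and at 1 d for 14. Of genes tested, 12% and 17.5% had their highest mean of these times at 8 h and at 1 d. The 6 that rose further were Npm1 (0.87 ± 0.13, adjusted p = 1.17e-06), Ncl (0.73 ± 0.14, adjusted p = 6.78e-05), Bop1 (0.39), Pno1 (0.36), Nop16 (0.31) and Imp4 (0.23). Nop16 was not called without array 1 or 4 of either group, nor Imp4 without array 1 at 8 h. Npm1 averaged 11.90 ± 0.32 at 1 d and 11.03 ± 0.34 at 8 h (SD, n = 5 each). Of the 11 that fell, Nop58 had the largest step, with 10.12, 8.81, 8.58, 8.59 and 8.31 at 1 d, against 9.77, 9.81, 10.11, 9.90 and 10.06 at 8 h. Array 1 at 1 d lay just above the highest array at 8 h and the other 4 lay below all arrays at 8 h, and the step was -1.05 ± 0.25 (adjusted p = 0.000945). Nip7 (-0.82 ± 0.16), Wdr3 (-0.66 ± 0.13), Gnl2 (-0.57 ± 0.16) and Wdr43 (-0.47 ± 0.10) fell as well, with adjusted p from 8.94e-05 to 0.00411. Leaving out array 1 at 1 d raised the number of members called at this step to 26, and without both arrays 1 and 2, a setting chosen after seeing the data, it was 24. The shares of all genes tested called in these refits are not given here, so the rise cannot be set against them.

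**Figure D3:**
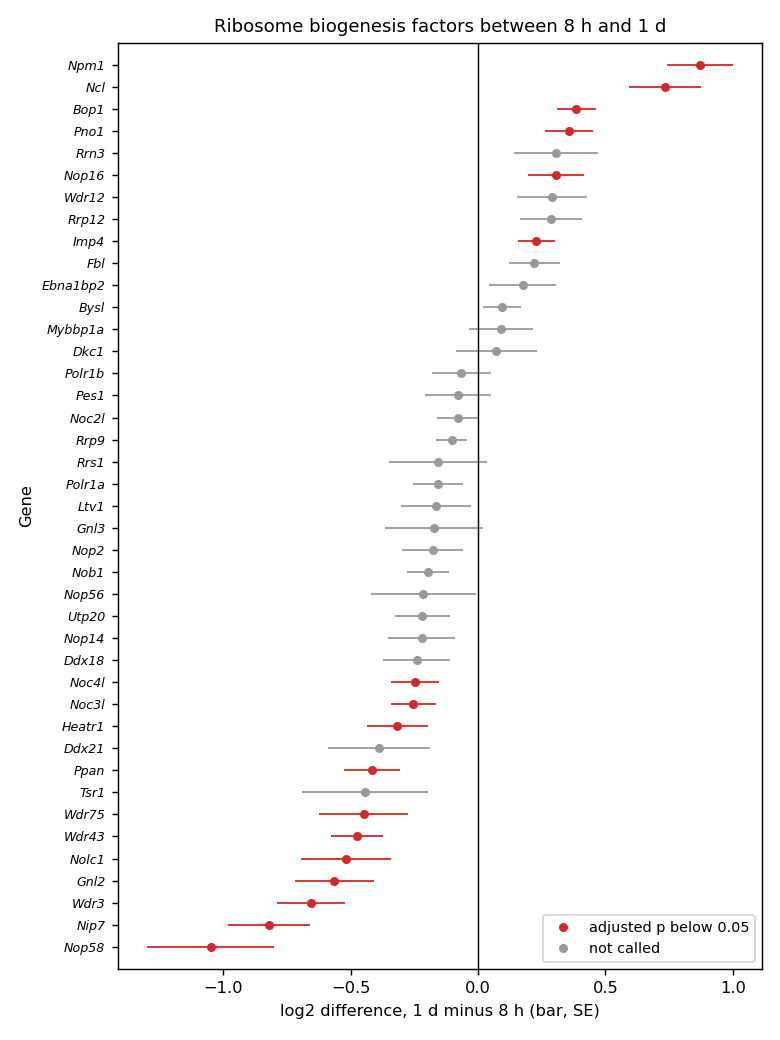
Log2 difference between 1 d and 8 h for each of the 41 genes, with standard errors, in red where the adjusted p is below 0.05. Npm1 and Ncl lie at the upper end with 0.87 and 0.73, and Nop58 and Nip7 at the lower end with -1.05 and -0.82.

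At 2 d, 18 of 41 were higher and 0 lower, against 21.1% of genes tested called higher and 40.1% called in either direction, and without array 5 at 2 d 9 members were called. From 1 d to 2 d, 30 members fell and 0 rose, against 15% of genes tested that fell and 17.4% that rose, 32.4% in all. From 2 d to 4 d, 28 fell and 0 rose, against 17.9% that fell. Nop58 read 8.50, 8.08, 8.29, 8.69 and 8.82 at 2 d, against 6.96, 6.91, 7.14, 7.18 and 7.67 in controls, and was higher by 1.31 ± 0.25 (adjusted p = 5.08e-05). Nolc1 read 7.26, 7.29, 7.21, 7.42 and 7.82 at 2 d, against 6.28, 6.46, 6.74, 6.76 and 6.75 in controls, and was higher by 0.80 ± 0.18 (adjusted p = 0.000364). Nop56 read 8.20, 8.16, 8.10, 8.66 and 8.79 at 2 d, against 7.41, 7.34, 7.78, 7.68 and 7.82 in controls, and was higher by 0.78 ± 0.21 (adjusted p = 0.00246). The arrays of Nop58 at 2 d lay above its control arrays in every case. Nop58 fell by 1.61 on the log2 scale from 2 d to 4 d.

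At 4 d, 0 of 41 members were higher and 2 lower, against 4.74% of genes tested called higher and 2.21% called lower. Gnl3 read 7.46, 7.33, 7.19, 7.64 and 7.79 at 4 d, against 7.70, 7.98, 8.16, 8.32 and 8.53 in controls, a difference of -0.65 ± 0.19 (adjusted p = 0.0258). Rrn3 read 5.75, 5.73, 5.58, 5.67 and 5.83 at 4 d, against 5.85, 6.02, 6.55, 6.49 and 6.48 in controls, a difference of -0.57 ± 0.16 (adjusted p = 0.0255). All arrays of Rrn3 at 4 d lay below all controls, and Gnl3 overlapped its controls by 1 array. Both calls were lost without control array 3, 4 or 5 or array 3 at 4 d, and that of Gnl3 also without array 1 or 2 at 4 d. From 4 d to 6 d Rrn3 rose by 0.78 ± 0.16, Gnl3 by 0.69 ± 0.19 and Nob1 by 0.26 ± 0.08, the 3 members called at that step, against 3.51% of genes tested that rose and 7.30% that fell. Tsr1 had a difference of -0.48 ± 0.25 from control at 4 d and was not called (adjusted p = 0.294).

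No member was called at 6 d or at 8 d, where 0.0227% and 0.144% of genes tested were called, those at 8 d being 0.0680% higher and 0.0755% lower. Unadjusted p fell below 0.05 in 1 member at 6 d and in 0 at 8 d, but in 7 at 4 d and in 11 at 16 d. No share of all genes tested was taken for these unadjusted counts or for those of the later steps. At 16 d, 0 members were higher and 1 lower, against 1.10% of genes tested called lower. This was Ncl, which read 8.55, 8.59, 8.58, 8.27, 8.46 and 8.26 on the 6 arrays at 16 d, against 8.88, 8.59, 8.71, 9.26 and 9.30 in controls, a difference of -0.50 ± 0.14 (adjusted p = 0.0494). All 6 arrays lay below or at the low end of the control range, the adjusted p lies next to the threshold, and the call was lost in 33 of the 46 fits that left out 1 array. Rrs1 (-0.59 ± 0.18, adjusted p = 0.0846), Rrn3 (-0.57 ± 0.16, adjusted p = 0.053) and Nop58 (-0.52 ± 0.24, adjusted p = 0.236) were not called. Between 6 d and 8 d and between 8 d and 16 d 0 members were called, with 2 and 7 under an unadjusted p of 0.05, and 0.00755% and 0% of genes tested were called.

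**Figure D4:**
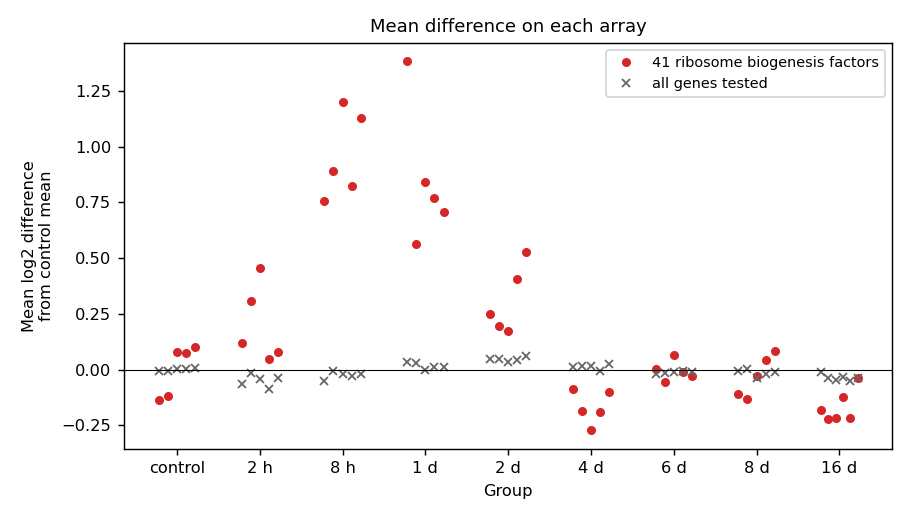
Mean log2 difference from the control mean over the 41 ribosome biogenesis factors (red) and over all genes tested (grey crosses) on each of the 46 arrays. At 8 h the 5 arrays lie between 0.76 and 1.20, at 1 d between 0.56 and 1.38, and at 16 d the 6 arrays lie between -0.22 and -0.04, while all genes stay near 0.

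Over all times together 40 of 41 members passed the F-test, against 83.4% of genes tested. Calls at 2 h, 8 h, 1 d and 2 d together were made in 5 members, Nop58, Nolc1, Wdr75, Tsr1 and Nip7. Calls at 8 h, 1 d and 2 d were made in 13, at 8 h and 1 d in 13, and at 2 h, 8 h and 1 d in 4. For these joint patterns the share of all genes tested was not taken. Over the 9 group means the correlation of each member with the median of the others ranged from 0.48 in Noc2l to 0.998 in Ltv1, as a description of group means from shared arrays. The low value of Noc2l depends on its probe set. The one used gave 0.21 at 8 h and 0.13 at 1 d, and another Noc2l probe set above the filter level gave 0.78 and 1.19. Of genes that are no member, Ufd1 (r = 0.995), Qser1 (0.994), Rab33b (0.994), Plaa (0.994) and Rbpms (0.994) were most like the members' median over these 9 means.

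Other genes of the pathway were taken from lists by role. Of 129 other ribosome biogenesis factors tested, 91 were higher and 6 lower at 8 h, and 101 were higher and 4 lower at 1 d. Among 44 large subunit factors 37 were higher and 0 lower at 8 h, among 46 small subunit factors 31 and 2, among 13 exosome genes 8 and 2, among 11 snoRNP assembly genes 8 and 2, and among 15 Pol I genes 7 and 0. The genes with the largest rise in each of these lists were Eif6 (1.64), which keeps the subunits apart until assembly ends, Gar1 (1.60), a core H/ACA protein, Ngdn (1.51), a small subunit factor, Twistnb (1.17), a Pol I subunit, and Dis3 (1.15), an exosome ribonuclease. The named falls were Utp6 (-0.85), Pih1d1 (-0.34), Nop10 (-0.31), C1d (-0.61), Exosc7 (-0.33) and Nol7 (-0.23). Of these, Exosc7 and Nol7 were near the threshold (adjusted p = 0.0398 and 0.0425). Utp6 and Nol7 were higher at 8 h when read from the probe set with the largest SD. Polr1c, a subunit shared by Pol I and Pol III, was higher by 0.81 ± 0.14 at 8 h and 1.26 ± 0.14 at 1 d, and Nhp2, an H/ACA protein, by 0.87 ± 0.11 and 1.59 ± 0.11. Ubtf, the Pol I promoter factor, was not called at any time.

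Cytosolic ribosomal proteins are assembled with the RNA into the subunits. Of 42 tested, 20 were higher and 0 lower at 8 h, 42 and 0 at 1 d, and 40 and 0 at 2 d, where 18 of 41 members were called. Their median difference was 0.20 at 8 h and 0.63 at 1 d. DNA replication genes were called higher in 2 and lower in 4 of 21 at 8 h, in 5 and 0 at 1 d and in 18 and 0 at 2 d. The 8 mitosis genes tested were called in neither direction at 8 h and 1 d, and 8 were higher at 2 d. Mki67, a proliferation marker, differed from control by -0.17 at 8 h, -0.36 at 1 d and 4.21 at 2 d, and the first 2 were not called. Mcm5, a replication licensing gene, differed by -0.62, 0.43 and 3.87 at these times, and only the last was called.

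**Figure D5:**
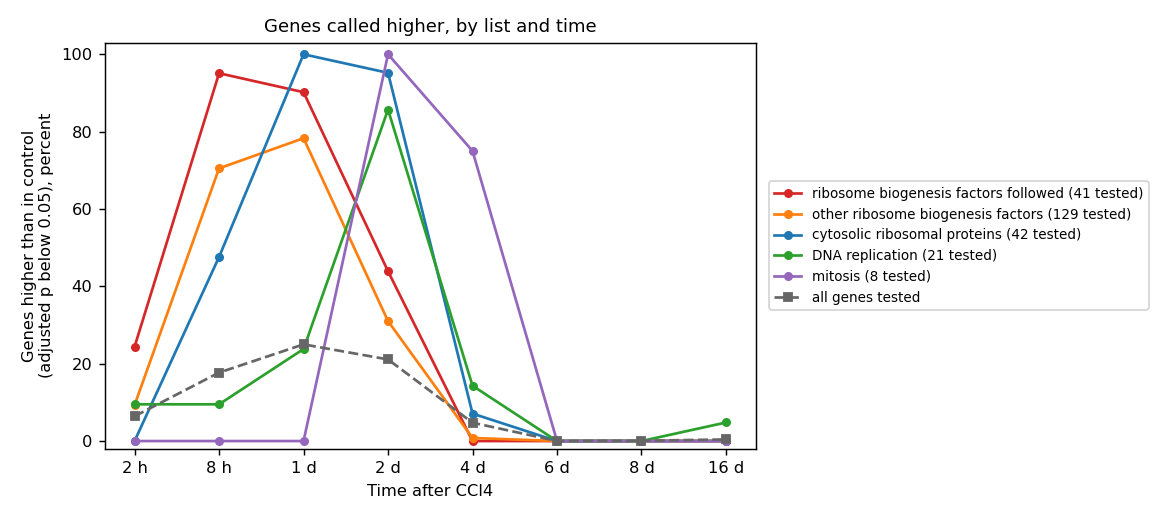
Percent of tested genes called higher than in control (adjusted p below 0.05) in each list at each time after CCl4. The 41 ribosome biogenesis factors stand at 95.1% at 8 h and 43.9% at 2 d, the ribosomal proteins at 47.6% and 95.2%, and all genes tested at 17.7% and 21.1%.

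Myc, the transcription factor known to bind E-boxes of nucleolar genes, read 8.45, 8.92, 9.38, 8.65 and 8.95 at 8 h, against 6.29, 5.84, 6.01, 5.74 and 5.62 in controls, and was higher by 2.97 ± 0.32 (adjusted p = 3.62e-10). It was also higher by 1.80 ± 0.32 at 2 h, 2.11 ± 0.32 at 1 d and 1.27 ± 0.32 at 2 d, and it was not called from 4 d on. Mycn, a relative of Myc, had a difference of -0.05 at 8 h and was not called (adjusted p = 0.565). It was called lower at 1 d (-0.20 ± 0.06, adjusted p = 0.00843) and at 2 d (-0.20 ± 0.06, adjusted p = 0.0137). Of the 11 Myc network genes tested 6 were higher and 1 lower at 8 h, among them Max (0.63), the partner of Myc, and Mxi1 (-0.85), which competes with it. Array 3 at 2 h was the highest array at 2 h in Myc as in Nop58, Tsr1 and Gnl3. The arrays at 1 d did not match in this way. Array 1 at 1 d had the highest mean over the members (1.38 above control), but Myc read 7.83 there. On the other arrays at 1 d Myc read 6.93, 8.34, 8.60 and 8.34. Whether Myc bears on the levels of these genes was not tested.

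Marker genes of liver cell types were read beside these results. Of the hepatocyte markers tested, 0 of 8 were higher and 2 lower at 8 h, with summed log2 levels of 107 to 109 at 8 h and 108 to 109 in controls, and Alb was not called at 8 h (-0.02 ± 0.04), though with cyclic loess it was 0.38 and called higher (adjusted p = 9.92e-07). Of 9 monocyte and macrophage markers 1 was higher and 3 lower at 8 h, with summed levels of 58.9 to 60.05 at 8 h and 58.9 to 59.9 in controls. Of 6 resident Kupffer cell markers 5 were lower, with sums of 44.0 to 45.0 at 8 h and 46.5 to 47.8 in controls. Of 7 endothelial markers 1 was higher and 5 lower, with sums of 51.0 to 53.2 at 8 h and 53.1 to 54.2 in controls. Of 9 stellate cell and myofibroblast markers 3 were lower, Col3a1 (-1.45), Lrat (-0.90) and Reln (-0.35), with sums of 57.5 to 61.3 at 8 h and 61.2 to 63.4 in controls. None of 4 neutrophil, 5 lymphocyte and 3 cholangiocyte markers was called at 8 h. At 1 d 5 of 8 hepatocyte markers were lower, with sums of 104.0 to 108.1 at 1 d and 107.5 to 108.9 in controls. At 1 d 4 of 9 monocyte and macrophage markers were higher, with sums of 65.3 to 69.5 at 1 d and 58.9 to 59.9 in controls. Of 4 neutrophil markers 2 were higher and 1 lower at 1 d, with sums of 24.7 to 30.3 at 1 d and 22.4 to 23.7 in controls. At 2 d 6 of 9 stellate cell and myofibroblast markers were higher, with sums of 67.7 to 76.7 at 2 d and 61.2 to 63.4 in controls, and 5 of 9 monocyte and macrophage markers were higher. The part of these cells in the member values was not tested. Of the signs of RNA integrity on the arrays, the Gapdh 3 prime minus 5 prime value was lower than in controls from 2 h to 4 d, with differences of -0.21 at 2 h, -0.18 at 8 h, -0.18 at 1 d, -0.15 at 2 d and -0.15 at 4 d. Exact permutation tests gave an adjusted p of 0.0317 at 8 h and 2 d and of 0.0381 at 2 h, 1 d and 4 d. The same value of Actb passed the test at no time (adjusted p of 0.254 to 0.524, exact permutation tests). The interquartile range of the values on an array was higher than in controls at 1 d (by 0.099) and 2 d (by 0.115). At 16 d it was lower (-0.075). Each of these 3 had an adjusted p of 0.0212 (exact permutation tests), and no other time passed. With the Gapdh value as a covariate, added after seeing the data, 36 members were called at 8 h and 35 at 1 d, and Nop58 differed by 2.70 at 8 h.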

How the data were processed

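Per the labels' protocols, oligo-dT primed liver RNA was hybridised as biotinylated cRNA to Affymetrix mouse arrays. The deposited log2 expression values came from RMA in oligo 1.52.0, as the submitters' processing notes list; RMA evens out shifts that most genes share. No batch or scan date was stated. The table has 45101 probe sets, of which 34945 name a single gene, 932 more than 1, 9160 none, and 64 are controls; 34741 symbols were updated through Entrez IDs. A gene was tested if its chosen probe set lay above 5.55823, the median of the whole table, in 5 or more arrays.

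All 46 arrays entered 1 limma fit of 9 group means (limma 3.58.1 in R 4.3.3, lmFit and eBayes, 37 residual degrees of freedom), with 8 contrasts against control, 7 neighbouring steps and an F-test over all times, which 40 of 41 members passed (83.4% of genes tested). Adjusted p-values are Benjamini-Hochberg values over 13239 genes within a contrast. The fit was tested on simulated data. RNA quality values and the interquartile range were set against control with exact two-sided permutation tests, adjusted over the 8 times (smallest p for 5 arrays against 5, 0.00794). Summaries and plots used Python 3.11.15, pandas 2.3.3 and matplotlib 3.10.9.

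The members and lists were chosen with earlier results of these data known. Full values are given for the largest differences in each role at 8 h and at each other time with a call, and for members not called at 8 h. A fixed panel (Myc, Mycn, Ubtf, Polr1c, Nhp2, Mki67, Mcm5, Alb) was also read. Of these, Myc has array values and the others a difference or a call only. Dkc1 at 2 h, the 8 h to 1 d step genes and Ncl at 16 d were named after their values were seen. Alternatives changed the scaling, the filter, the probe set rule, the variance model, the weights, the groups fitted or the threshold, added a replicate block, or dropped 1 array at a time. The Gapdh covariate and dropping both arrays 1 and 2 of the 1 d group were chosen after seeing the data.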

Additional observations from a re-analysis of the deposited data

Results flagged for a closer look

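Nop58 read 7.47 on array 6 at 16 d, where the other 5 arrays at that time ranged from 6.37 to 6.61. The gap to the nearest array was 0.786 of the range of the group. This was 1 flag among 57 sets of arrays examined for the named members, and chance flags about 1 in 20 such sets.

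Members were called in opposite directions at 2 times in 4 cases, and the difference between the times was tested in the same limma fit. The times were picked by those calls, so a difference between them was fixed in advance and these p-values add no support. The lower calls of Rrn3 and Gnl3 at 4 d and of Ncl at 16 d were lost in several fits that left out 1 array. Rrn3 was lower than control at 4 d and higher at 1 d, with a difference of -1.05 between these times (adjusted p = 9.81e-07). Ncl was lower than control at 16 d and higher at 1 d, with a difference of -2.25 (adjusted p = 4.33e-17). Dkc1 was lower than control at 2 h and higher at 1 d, with a difference of -1.28 (adjusted p = 6.9e-09). Gnl3 was lower than control at 4 d and higher at 8 h, with a difference of -1.98 (adjusted p = 1.89e-11). The causes were not tested.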

How the results depend on the processing

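The number of members called at 8 h (39), at 1 d (37) and from 2 h to 8 h (33) stayed within 1.5 times under every alternative run, and leaving out 1 array gave 37 to 39, 35 to 39 and 31 to 35. Counts from these and the other refits are of members only, and the shares of all genes tested are not given beside them. At 2 h the count of 11 became 17 with cyclic loess, 7 with the probe set of largest SD, 7 at an adjusted p under 0.01, 6 at a 1.5-fold minimum and 4 with the Gapdh covariate, and 7 to 13 without 1 array. At 2 d the count of 18 became 9 at 0.01, 5 at 1.5-fold and 9 with the covariate, and 9 to 23 without 1 array. At 4 d the count of 2 became 5 with array weights, 4 with only the 2 groups, 0 at 0.01 and 1 at 1.5-fold, and 0 to 2 without 1 array. At 16 d the count of 1 became 2 with medians shifted, with the stricter filter, with the covariate and without both 1 d arrays 1 and 2, 4 with array weights, and 0 with cyclic loess, no filter, the mean of all probe sets, trend and robust variance, the replicate block, 0.01 and 1.5-fold, and 0 to 2 without 1 array. For the step from 8 h to 1 d, 17 became 27 with array weights, 8 with only the 2 groups, 10 at 0.01 and 5 at 1.5-fold, and 12 to 26 without 1 array. From 1 d to 2 d, 30 became 16, and from 2 d to 4 d 28 became 14, at 1.5-fold, with 26 to 31 and 26 to 34 without 1 array. From 4 d to 6 d, 3 became 9 with array weights, 6 with only the 2 groups and 1 at 0.01, and 2 to 4 without 1 array. The counts at 6 d, at 8 d, from 6 d to 8 d and from 8 d to 16 d were 0 in every fit without 1 array, and the F-test kept 39 to 40. The replicate block moved no other count of calls by over 1.5 times. Whether arrays with the same number share more than that number is not settled by these values. The mean r between groups was 0.0153 for same-numbered arrays and -0.00358 for other-numbered arrays. Of 40 same-numbered pairs with control, 8 correlated above 0.1, with r from -0.15 to 0.256, and other-numbered pairs were not counted in this way. Signs turned for Rrp9 at 1 d with quantile normalization (-0.028), Utp6 at 8 h (0.63), Nol7 at 8 h (0.58) and Mycn at 8 h (0.061) with the probe set of largest SD, Nol7 at 8 h with the mean of all probe sets (0.027), and Alb at 8 h with quantile normalization (0.00) and cyclic loess (0.38); the causes were not tested. For the 182 named values, the settings other than leaving out an array kept 2218 refits the same. Among their other refits were 104 lost calls, 18 gained calls and 7 turned signs. Leaving out 1 array kept 8203 refits the same, with 151 lost calls, 18 gained calls and 0 turned signs. Array signal near the filter level limits Polr1b and Rrp12.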
